A study of Homo sapiens with 8 samples.

Results

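Accessible chromatin in U2OS cells that carried a control siRNA was compared with and without an acute dose of hydrogen peroxide. The members are all regions formed by merging overlapping or touching ATAC-seq peaks of the 2 conditions on chromosomes 1 to 22 and X. They number 121145, against 129052 when the peaks of all 4 conditions of the study are merged. U2OS is an established human osteosarcoma line. All cells received an siRNA for 72 h, either the control siGl3 or one against Orc6, a subunit of the origin recognition complex, and were arrested by a double-thymidine block and released into S phase for 3 h. The untreated siGl3 cells were then collected, and the treated siGl3 cells were collected after 5 mM H2O2 for 30 min. Each condition had 2 libraries, numbered by batch, and the labels do not say whether they came from separate cultures.

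In ATAC-seq a transposase inserts adapters into DNA that is not wrapped tightly on nucleosomes, so peaks of insertion mark promoters, enhancers and other open sites. The promoters of widely expressed genes usually sit in CpG islands, stretches in which the CpG dinucleotide has not been depleted, and they tend to be open in most cell types. Enhancers lie farther from genes, differ more between cell types and are generally poorer in CpG. H2O2 oxidises bases and breaks single DNA strands, and it also acts as a signal that sets off the NRF2 antioxidant response, stress kinases and immediate-early genes.

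Each condition is represented by 1 peak list whose name carries both library numbers. The lists hold no read counts, so depth is unknown, the spread between libraries cannot be given and no comparison below has a test across libraries. The untreated list had 115292 peaks over 70.3 Mb with a median width of 471 bp, and the H2O2 list had 103674 peaks over 62.8 Mb with a median width of 453 bp. The strength of a region is given as a percentile: the best peak signal in the region, a value assigned by the authors' caller, ranked within its own list so that the strongest peak is at 100. A region or gene is called risen or fallen where that percentile was at least 10 points higher or lower with H2O2. The rule is one of size only. A region above the 90th percentile cannot rise by it. Signal also went with width within each list (Spearman 0.857 without and 0.842 with H2O2, across peaks). Intervals are 95% Wilson intervals for counting error only, and neighbouring regions are not independent.

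The promoters that led each class of change differed in CpG content, and the 300-base windows around 6 annotated starts are shown for that reason. They run from 250 bases before to 50 bases after the start, on the strand of the gene, in GRCh38.p14 (RefSeq), with every CpG in capitals. The first 4 are the leading genes of each class whose region covered the annotated start. FNDC4 had the strongest start region listed only with H2O2 (chr2:27495151-27495450, minus strand, 35 CpG). CNTFR had the largest rise (chr9:34589675-34589974, minus strand, 48 CpG). FAM83E had the strongest start region listed only in untreated cells (chr19:48615027-48615326, minus strand, 9 CpG). C12orf42 had the largest fall among starts inside their region (chr12:103496086-103496385, minus strand, 7 CpG). EGR4 (chr2:73293499-73293798, minus strand, 35 CpG) and OAS1 (chr12:112906712-112907011, plus strand, 1 CpG) are an immediate-early gene that rose and an interferon-induced gene whose region was listed only without H2O2.
FNDC4: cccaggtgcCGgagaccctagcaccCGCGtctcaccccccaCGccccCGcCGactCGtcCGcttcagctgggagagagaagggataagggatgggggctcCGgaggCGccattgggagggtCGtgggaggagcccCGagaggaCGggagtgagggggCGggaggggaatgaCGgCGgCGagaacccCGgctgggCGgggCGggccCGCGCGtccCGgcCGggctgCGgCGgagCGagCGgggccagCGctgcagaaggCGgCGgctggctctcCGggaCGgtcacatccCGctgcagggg
CNTFR: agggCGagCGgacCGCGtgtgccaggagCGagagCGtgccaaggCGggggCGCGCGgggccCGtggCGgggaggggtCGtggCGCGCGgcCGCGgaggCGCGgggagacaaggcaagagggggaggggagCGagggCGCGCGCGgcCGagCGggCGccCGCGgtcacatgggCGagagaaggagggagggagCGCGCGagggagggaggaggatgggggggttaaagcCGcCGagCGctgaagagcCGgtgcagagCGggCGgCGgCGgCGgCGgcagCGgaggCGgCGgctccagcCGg
FAM83E: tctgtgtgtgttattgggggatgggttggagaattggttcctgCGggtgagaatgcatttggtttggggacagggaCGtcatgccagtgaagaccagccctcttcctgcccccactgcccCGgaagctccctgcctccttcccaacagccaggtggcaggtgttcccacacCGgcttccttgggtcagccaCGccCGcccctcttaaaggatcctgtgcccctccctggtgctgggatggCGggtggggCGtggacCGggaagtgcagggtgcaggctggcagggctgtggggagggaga
C12orf42: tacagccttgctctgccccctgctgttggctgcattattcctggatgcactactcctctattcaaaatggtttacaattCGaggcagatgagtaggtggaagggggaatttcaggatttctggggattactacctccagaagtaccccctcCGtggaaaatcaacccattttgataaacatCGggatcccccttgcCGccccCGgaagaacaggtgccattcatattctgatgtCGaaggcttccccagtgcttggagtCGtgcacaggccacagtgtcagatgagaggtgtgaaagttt
EGR4: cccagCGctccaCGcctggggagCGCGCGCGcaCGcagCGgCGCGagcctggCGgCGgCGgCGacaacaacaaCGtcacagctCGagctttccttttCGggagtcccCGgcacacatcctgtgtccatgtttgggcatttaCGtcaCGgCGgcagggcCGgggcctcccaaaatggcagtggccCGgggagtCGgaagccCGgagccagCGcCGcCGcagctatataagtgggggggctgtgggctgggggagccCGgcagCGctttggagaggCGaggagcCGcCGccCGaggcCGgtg
OAS1: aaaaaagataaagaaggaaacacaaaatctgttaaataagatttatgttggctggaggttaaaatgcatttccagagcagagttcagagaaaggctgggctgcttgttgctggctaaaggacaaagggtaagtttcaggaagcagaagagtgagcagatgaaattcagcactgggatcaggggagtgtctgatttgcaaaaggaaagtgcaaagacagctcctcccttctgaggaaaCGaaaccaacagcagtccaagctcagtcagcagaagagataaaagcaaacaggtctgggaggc

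Most regions were listed in both conditions, and those listed once were weak. Of the 121145 regions, 93242 (76.97%) had a peak in both lists. A further 19654 had a peak only in untreated cells, which is 16.2% of all regions (interval 16.02 to 16.43%), and 8249 had a peak only with H2O2, which is 6.81% (6.67 to 6.95%). Regions listed once had median widths of 264 bp without and 267 bp with H2O2, against 588 bp for shared regions. Their median percentiles were 13.9 in the untreated list and 11.7 in the H2O2 list, and 90% of them lay below 34.1 and 31.9. The excess of untreated-only regions went with the longer untreated list: when the untreated list was cut to its 103674 strongest peaks, the counts became 12164 and 11934. The number of regions that left or entered a list is therefore not read here as a loss of accessible sites, and the text turns to where they were.

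Gene starts fared differently from the rest of the genome. A gene start is the strand-aware 5′ end of 1 of 15812 protein-coding genes, and a region is at a start when it lies within 1 kb of one. Only 1 start was used per gene, so other starts of the same gene are not covered. No starts were given for chromosome 8, so its 6537 regions are left out wherever distance is measured and otherwise count as elsewhere. Only 458 of the untreated-only regions were at a gene start (2.33%, interval 2.13 to 2.55%), against 551 of the H2O2-only regions (6.68%, 6.16 to 7.24%) and 10552 of the shared ones (11.3%). With lists of equal length the shares were 2.14% and 6.17%, and without chromosome 8 they were 2.46% and 7.03%. Expressed over all regions at starts, 4.16% of those in the untreated list were missing with H2O2 and 4.96% of those in the H2O2 list were new. Away from starts, in the lists as deposited, losses were the more frequent: 17.3% missing against 11.4% new at 1 to 5 kb, and 21.2% missing against 6.59% new beyond 100 kb. Regions listed only with H2O2 lay at a median 34.0 kb from the nearest start, shared regions at 44.6 kb and untreated-only regions at 67.4 kb.

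Because weak regions drop out of a list most easily, the same comparison was made at matched strength. In the third decile of the untreated list, 304 of 375 regions at gene starts (81.1%, 76.8 to 84.7%) were also listed with H2O2, against 66.8% (65.9 to 67.7%) of 10837 regions elsewhere. In the lowest decile the shares were 48.4% and 32.4%. The order was the reverse when the H2O2 list was read: in the third decile of that list 67.1% (61.8 to 71.9%) of regions at starts had been listed in untreated cells, against 88.1% (87.4 to 88.7%) elsewhere, and in the fifth decile 84.4% against 98.2%. Thus at equal rank a start region was more often kept and more often new than a region elsewhere. From the eighth decile upward at least 99.8% of regions were found in the other list in both directions and at both kinds of site.

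**Figure D1:**
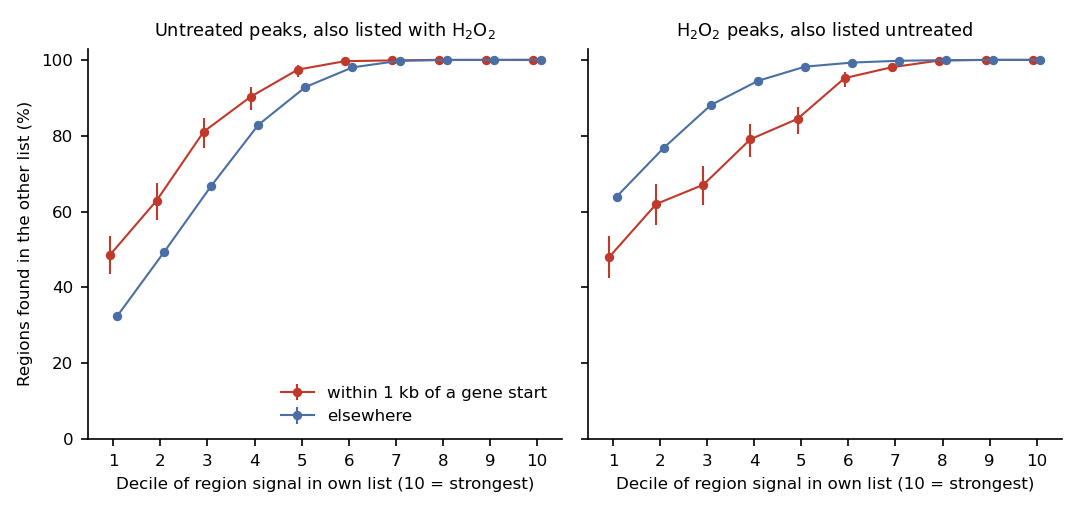
Share of regions (%) found in the other list, by decile of signal in the own list, for regions within 1 kb of a gene start and elsewhere; bars are 95% Wilson intervals for counting error. In the third decile the start regions lie above the others in the untreated list (81.1% against 66.8%) and below them in the H2O2 list (67.1% against 88.1%).

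Shared regions showed the same division in their rank. Over all 93242 shared regions the percentile with H2O2 was a median 2.79 points lower, 9241 rose (9.91%) and 23576 fell (25.3%). This balance also followed the list lengths, since ranking over the shared regions alone gave 15123 that rose and 15128 that fell. At gene starts the median shift was 0.56 points, 14.2% rose and 4.55% fell. Elsewhere the median was -3.79 points, 9.37% rose and 27.9% fell. Ranked over shared regions alone the shares were 20.8% and 2.90% at starts and 15.6% and 17.9% elsewhere, so the direction of the contrast between starts and other sites was kept while the gap in medians became smaller, at 1.89 against -0.79 points. The direction was also the same in each of the other rankings tried. The median shift moved from 0.56 points within 1 kb of a start through -1.75 at 1 to 5 kb, -2.48 at 5 to 20 kb and -3.57 at 20 to 100 kb to -5.19 beyond 100 kb. Ranked over shared regions alone the same medians were 1.89, 0.97, 0.16, -0.68 and -1.97, so the sign between 1 and 20 kb depends on the ranking and the order along distance does not.

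**Figure D2:**
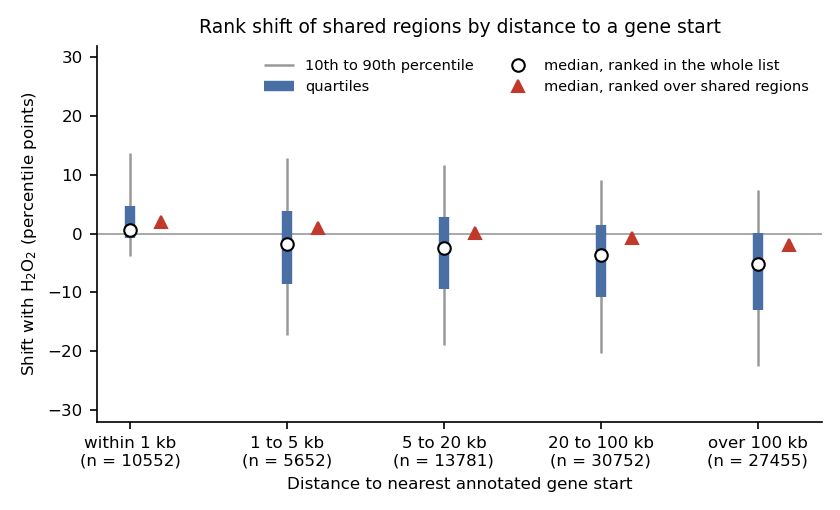
Shift in percentile with H2O2 (percentile points) of shared regions, by distance to the nearest gene start; circles are medians, thick bars quartiles, thin bars the 10th to 90th percentile, and triangles medians of ranks over shared regions alone. Medians go from 0.56 points within 1 kb to -5.19 points beyond 100 kb.

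The contrast was largest at regions of middling strength. Among shared regions whose mean percentile over both lists lay between 25 and 50, 42.7% of 926 at gene starts rose and 22.03% fell, against 14.1% and 41.6% of 24682 elsewhere. Between 50 and 75 the shares at starts were 36.9% and 7.36%, against 6.58% and 26.9% elsewhere, and the median shifts were 6.05 and -4.63 points. Above 75 few regions of either kind passed 10 points, with 4.50% risen at starts and 4.62% fallen elsewhere. Starts of long non-coding RNA genes stood between these 2 kinds of site: of 2983 regions there, 9.59% were listed only without and 6.504% only with H2O2, and the median shift was -0.97 points.

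Peaks away from starts were also narrower with H2O2. In shared regions the summed peak width was a median 548 bp without and 483 bp with H2O2, and the median ratio was 0.946. The ratio was 0.990 within 1 kb of a start, 0.962 at 1 to 5 kb and 0.926 beyond 100 kb. Of the 89164 shared regions with exactly 1 peak in each list, 66.9% were narrower and 32.2% wider, and each edge lay a median 9 bp further in. Their summits were a median 13 bp apart, and 76.2% were at most 50 bp apart, so the same site was mostly called in both lists. The shift in percentile and the log2 ratio of widths went together across shared regions (Spearman 0.526), which share the signal value that sets the rank.

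Chromosomes rich in genes had the fewest losses. On chromosome 19 regions listed only with H2O2 outnumbered those listed only without it, 469 against 427, a ratio of untreated-only to H2O2-only of 0.910. The ratio was 1.27 on chromosome 22 and 1.397 on chromosome 17, and it reached 3.5 on chromosome 4, 3.81 on chromosome 18 and 3.98 on chromosome 13. A gradient of the same direction was seen among regions not within 1 kb of a start that was used, all of chromosome 8 included. Of those, the share listed only without H2O2 was 22.02% in 1 Mb bins with no coding gene, 20.2% with 1 to 4, 17.4% with 5 to 14 and 13.4% with 15 or more. The share listed only with H2O2 went from 4.80% through 5.11% and 6.85% to 10.4%, and the median shift from -5.71 to -1.31 points. The bin from 81000001 to 82000000 on chromosome 17 had 49 H2O2-only and 12 untreated-only regions among 195, and the bin from 136000001 to 137000000 on chromosome 9 had 50 and 9 among 171. The bin from 73000001 to 74000000 on chromosome 13 had 16 untreated-only regions among 33, and the bin from 178000001 to 179000000 on chromosome 3 had 13 among 25.

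Most genes kept an accessible start. Of the 15812 genes, 10615 had a region within 1 kb of the start in both lists and 4775 in neither. The start region was listed only without H2O2 for 162 genes (1.02%) and only with H2O2 for 248 (1.57%), and 12 genes had a region of each kind. Of the 10615 genes with a shared start region, 1297 rose (12.2%) and 276 fell (2.6%). Ranked over shared regions alone the numbers were 1923 and 193. Neighbouring genes can share a region, and the risen genes drew on 1235 regions. The median shift over the 10615 genes was 0.50 points, with the 10th and 90th percentiles at -2.58 and 11.98.

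The start regions found only with H2O2 were stronger than those found only without it at the top of their lists. FNDC4, which encodes a secreted protein with a fibronectin domain, led with a 1223 bp region at percentile 74.7. BAIAP3, a protein of vesicle traffic, followed at 69.7, CPNE5, a calcium-dependent copine, at 69.6, ADCY5, an adenylyl cyclase, at 69.0, and IQSEC2, an exchange factor of the synapse, at 64.4. The next 5 were MAP7, LONRF2, NRCAM, SBK3 and the growth factor receptor FGFR3, between 62.5 and 57.5. The GC content of these 10 promoters ran from 65.0% at SBK3 to 86.3% at FGFR3. Among the untreated-only starts FAM83E led at 61.7 with a region of 1437 bp, then TTLL3, a tubulin glycylase, at 56.3, BCO1, which cleaves beta-carotene, at 52.4, and TBC1D5, a regulator of Rab proteins, at 48.9. KRTAP13-2, S100Z, GAL3ST1, RTL3, CFAP141 and NFILZ followed between 43.9 and 40.9. GAL3ST1, with a GC content of 80.0%, was the exception among promoters that otherwise ranged from 37.3% to 64.3%.

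The largest rises were of regions near the bottom of the untreated list, where the percentile scale leaves the most room to rise. CNTFR, the ciliary neurotrophic factor receptor, went from percentile 6.67 to 76.1 while its peak widened from 250 to 1066 bp. NOL4L went from 14.4 to 81.2 and from 327 to 2104 bp, and SNAP91, a clathrin assembly protein, from 7.09 to 71.3. SPTB, the erythroid beta spectrin, went from 0.16 to 64.3, SLAIN1, a microtubule protein, from 1.16 to 63.6, TJP3 of tight junctions from 2.59 to 64.9, and ZNF385B from 9.62 to 72.0. PREX1, an activator of Rac, went from 16.7 to 78.4, NADK, the kinase that makes NADP from NAD, from 11.98 to 72.7, and DOCK9, an activator of CDC42, from 4.81 to 65.1. These 10 genes had a positive shift in all 5 rankings tried, though DOCK9 rose by 2.82 points and NOL4L by 7.37 points when signal was divided by width.

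The largest falls were of regions in the middle of the untreated list. ATP6V0A1, a subunit of the vacuolar proton pump, went from percentile 56.7 to 8.72 as its peak narrowed from 638 to 185 bp. C12orf42 went from 52.7 to 6.27, the adhesion molecule gene NTM from 47.6 to 2.24, C19orf85 from 47.4 to 2.88 and PRLR, the prolactin receptor, from 47.5 to 3.06. LOC107984956 went from 69.1 to 24.9, ZNF705A from 50.7 to 9.28, MPP4 from 61.8 to 21.5, GRAMD4 from 57.4 to 17.9 and HDAC9, a histone deacetylase, from 72.2 to 33.0. For C12orf42 the shift was 4.18 points upward when signal was divided by width, and for the other 9 it stayed negative in all 5 rankings.

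**Figure D3:**
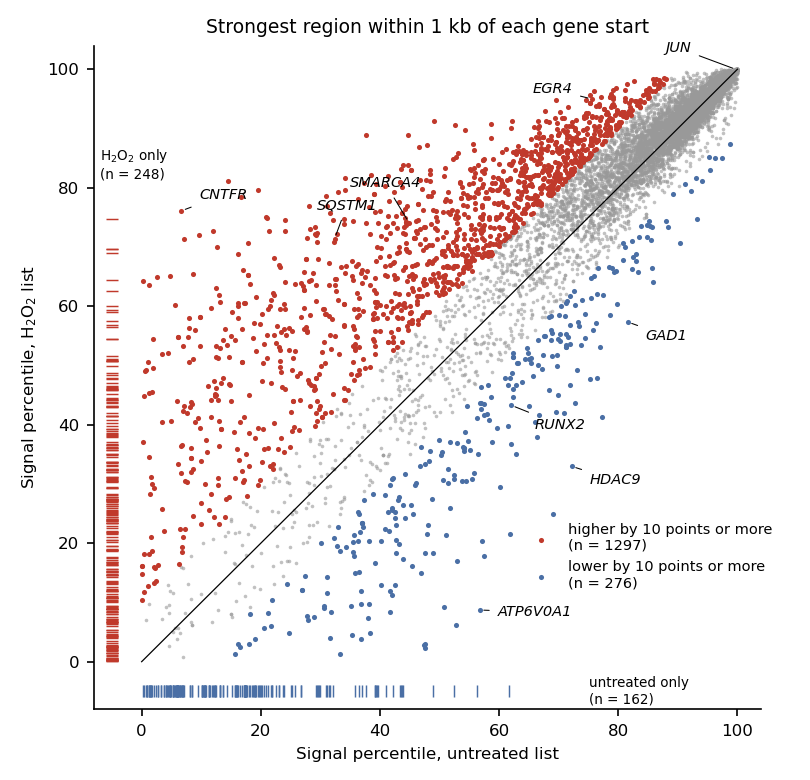
Signal percentile of the strongest region within 1 kb of each gene start, untreated list (x) against H2O2 list (y), 1 point per gene; ticks along the axes are start regions listed only once. Points 10 points or more above the diagonal number 1297 and those as far below it 276, and JUN sits at the top in both lists.

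The promoters of these classes differed in sequence. In the 300-base windows the median GC content was 72.0% for risen genes, 65.0% for genes within 10 points, 55.0% for fallen genes, 68.3% for genes with an H2O2-only start region, 54.8% for untreated-only genes and 62.7% over all 15812 genes. The ratio of observed to expected CpG was a median 0.855, 0.842, 0.388, 0.774, 0.313 and 0.763 in the same order. It was 0.307 at the 4775 genes with no region. The direction of the difference held at matched strength. Between mean percentiles 50 and 75, risen genes had a ratio of 0.859 and fallen genes 0.353. Between 25 and 50 the ratios were 0.825 and 0.367, and between 0 and 25 they were 0.640 and 0.318. Above 75 the gap was smaller, at 0.906 for risen genes and 0.702 for the 29 fallen genes. Single genes depart from this: among the largest falls the promoters of ATP6V0A1 and GRAMD4 had a GC content of 69.7% and 85.3%, and among the largest rises that of NADK had 48.0%. GC content affects amplification and recovery of DNA in sequencing libraries, and its part in these ranks was not tested.

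Some short motifs differed in frequency between the classes and others did not. The GC box GGGCGG, on either strand, was present in 80.5% of risen promoters (interval 78.2 to 82.6%), 73.4% of H2O2-only, 37.3% of fallen and 29.6% of untreated-only ones, against 58.5% of all promoters. The TATA box TATAAA was in 4.32% of risen, 13.04% of fallen and 16.7% of untreated-only promoters, against 9.64% of all. TGANTCA, the site of the AP-1 factors FOS and JUN, was in 3.62% of risen (2.74 to 4.79%), 9.78% of fallen (6.81 to 13.9%) and 9.88% of untreated-only promoters (6.17 to 15.4%), against 5.76% of all. CCGGAAG, a core site of ETS factors, was in 10.6% of risen promoters and 20.7% of those within 10 points. It was in 6.16% of fallen, 4.03% of H2O2-only and 3.09% of untreated-only promoters, against 14.2% of all. Motif shares were not matched for strength. TGACNNNGC, the core of the antioxidant response element bound by NRF2, was in 13.6% of risen, 15.9% of fallen and 14.3% of all promoters. A match is a run of letters and not evidence of a bound factor.

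**Figure D4:**
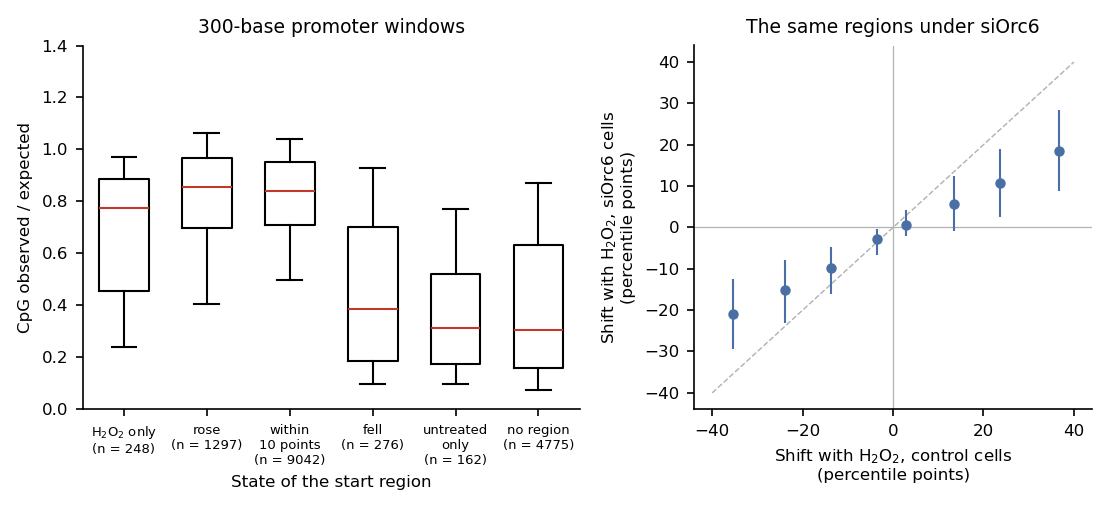
Left, ratio of observed to expected CpG in the 300-base promoter windows by state of the start region (boxes are quartiles with the median, whiskers the 10th and 90th percentiles); right, shift with H2O2 in siOrc6 cells against the shift in control cells (percentile points), as medians and quartiles of bins of regions present in all 4 lists. The median CpG ratio is 0.855 for risen and 0.388 for fallen genes, and the bin medians on the right go from -21.0 to 18.5 points.

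Genes of the responses that H2O2 is known to set off mostly had start regions that were already among the strongest in untreated cells. Of 24 immediate-early and AP-1 genes with a shared start region, 3 rose and none fell, beside 12.2% risen and 2.6% fallen over all genes. Only 6 of the 24 stood at or below the 90th percentile without H2O2, and 3 of these 6 rose, beside 23.04% of all such genes. The 23.04%, here and below, is not matched for strength below the 90th percentile. The median percentile of the 24 genes was 97.4 without and 98.1 with H2O2. JUN stood at 99.9 in both lists, EGR1 at 99.96 and 99.98, and FOS at 99.3 and 99.7. The 3 that rose were EGR4 from 75.6 to 94.97, KLF2 from 66.8 to 85.2 and EGR2 from 78.1 to 90.8, all of them transcription factors. The EGR4 region was split into several peaks without H2O2 and called as a single peak with it, and the EGR2 region was also cut differently in the lists. With signal summed over the region the shifts were 1.76 points for EGR4 and 4.57 for EGR2, and with signal per bp -40.3 and -21.3 points. ATF3 had no region at its annotated start in either list, though 6 shared regions lay over the gene with 5 kb added at either end.

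Among NRF2 and antioxidant genes with a shared start region, 4 of 23 rose and none fell. SQSTM1, the autophagy receptor p62 that also binds KEAP1, went from 32.4 to 71.4 at the 1 start used for it. That region runs from 179806717 to 179807610 on chromosome 5, and other starts of the gene were not examined. PRDX2, a peroxiredoxin that reduces H2O2, went from 53.6 to 78.3, MGST1, a microsomal glutathione transferase, from 19.5 to 39.5, and TALDO1 of the pentose phosphate pathway from 69.7 to 79.9. The 2 largest shifts downward, both under 10 points, were TKT from 86.0 to 77.7 and GPX4, which reduces lipid peroxides, from 96.5 to 88.5. NFE2L2, the gene of NRF2 itself, was at 99.1 in both lists, and NQO1 at 98.3 and 98.1. HMOX1, looked up by its gene ends, was at 97.4 and 98.4. TXNRD1 had no region at its annotated start, though 6 shared regions lay over the gene with 5 kb added at either end. Only 8 of the 23 genes stood at or below the 90th percentile in untreated cells, where a rise by 10 points is possible, so the list is read against the 1297 risen of 5629 such genes among all genes (23.04%).

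Chaperone genes were high in both lists. Of 16 heat shock genes 2 rose, the co-chaperones BAG3 from 79.2 to 93.8 and DNAJB6 from 72.0 to 83.1, and none fell. Over all genes 12.2% rose. Only 3 of the 16 stood at or below the 90th percentile without H2O2, and 23.04% of all such genes rose. The cytosolic HSP90 gene HSP90AB1 was at 99.7 and 99.8. HSPA1A, its near-identical copy HSPA1B, their neighbour HSPA1L and HSPA4L on chromosome 4 had no listed start region. All but HSPA4L lie on chromosome 6, where the ribosomal protein gene RPS18 had none either. Peaks on alternate sequences of chromosome 6 were left out of the comparison. The lack of a listed region is therefore not read as a closed promoter. Of 21 genes of the unfolded protein and integrated stress responses, TRIB3 (79.8 to 92.9) and the lipoprotein receptor gene VLDLR (58.7 to 69.1) rose and none fell. TRIB3 kept its direction in only 2 of 5 rankings. Of 14 NF-kB and inflammatory genes NFKB1 rose from 80.3 to 92.4 and IL1B, an inflammatory cytokine, fell from 69.8 to 45.0.

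Few genes of the repair and replication machinery passed 10 points, and most stood too high in the untreated list to rise by that much. None of 22 genes of base excision and single-strand break repair rose or fell, beside 12.2% risen and 2.6% fallen over all genes. Their shifts ran from -3.82 points at PARG to 1.52 at LIG1. OGG1, the glycosylase that removes oxidised guanine, was at 98.0 and 97.6, and PARP1, the sensor of strand breaks, at 92.4 and 91.9. None of 12 mismatch repair genes, 22 p53 targets, 21 licensing and firing genes or 37 ribosomal protein genes passed 10 points either way. A rise by 10 points is possible only at or below the 90th percentile without H2O2. There stood 5 of the 22 base excision, 5 of the 12 mismatch repair and 5 of the 22 p53 genes. So did 7 of the 21 licensing and 13 of the 37 ribosomal protein genes, against 5629 of 10615 over all genes. None of the genes of these lists with that room rose, beside 23.04% of all such genes. That share is not matched for strength, and rises were rarer among strong start regions. Of shared regions at starts, 36.9% rose between mean percentiles 50 and 75 and 4.50% above 75. The absence of risers is therefore not read as a trait of these lists. CDKN1A, the p53-induced inhibitor of cell cycle kinases, was at 99.8 and 99.7, and MDM2 at 93.6 and 91.9. ATRIP, the partner of the checkpoint kinase ATR, rose from 71.4 to 85.9 as the single mover among 25 double-strand break and checkpoint genes. CHAF1B, a subunit of the histone chaperone CAF-1, rose from 55.2 to 71.3 as the single mover of 25 fork genes. ORC6 itself, which was not targeted in these cells, was at 99.6 and 99.4.

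Of 19 chromatin remodellers outside the ISWI family with a shared start, 6 rose and none fell, beside 12.2% risen and 2.6% fallen over all genes: SMARCA4, an ATPase of the BAF complex, from 44.9 to 74.1, PBRM1 of PBAF from 63.9 to 84.6, HELLS from 15.99 to 35.9, EP400 from 72.1 to 87.2, SMARCD3 from 34.0 to 46.2 and ARID1B from 47.7 to 59.1. Of the 19, 11 stood at or below the 90th percentile without H2O2, and 23.04% of all such genes rose. SMARCA4 and ARID1B rose by 10 points or more in all 5 rankings, whereas EP400 fell by 21.1 points when signal was divided by width. Of 8 ISWI genes none passed 10 points, SMARCA5 was at 93.7 and 93.6, and CECR2 was listed only without H2O2, at 17.6. Among 28 histone genes H3C10 rose from 47.3 to 63.6, while H2BC17 had an untreated-only region at 17.4. Histone genes lie in clusters, and 28 of them shared 19 regions.

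Of 20 genes related to TGF-beta and matrix 3 rose and 1 fell, beside 12.2% and 2.6% over all genes, and 2 of the 3 risers share a region. COL4A1 and COL4A2, neighbouring genes that encode chains of basement membrane collagen, shared 1 start region that went from 43.4 to 80.9 and from 839 to 1616 bp. ITGA5, the alpha chain of the fibronectin receptor, went from 57.1 to 80.1, and COL6A2 fell from 73.7 to 53.5, though it was higher by 12.2 points when ranked by -log10 p and by 34.5 points by signal per bp. Of 12 YAP and TEAD targets LATS2 rose from 68.3 to 81.1, and of 16 pause-release genes NELFCD rose from 76.8 to 89.4. Interferon genes had 16 shared starts, of which RSAD2 rose from 45.0 to 58.8, and 2 that were listed only without H2O2, OAS1 at 39.3 and IFI44L at 19.1. IFIT3 stood at 68.9 without and 59.2 with H2O2 and the RNA sensor gene IFIH1 at 84.6 and 74.98, both short of 10 points, while ISG15 stood at 69.1 and 76.6.

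**Figure D5:**
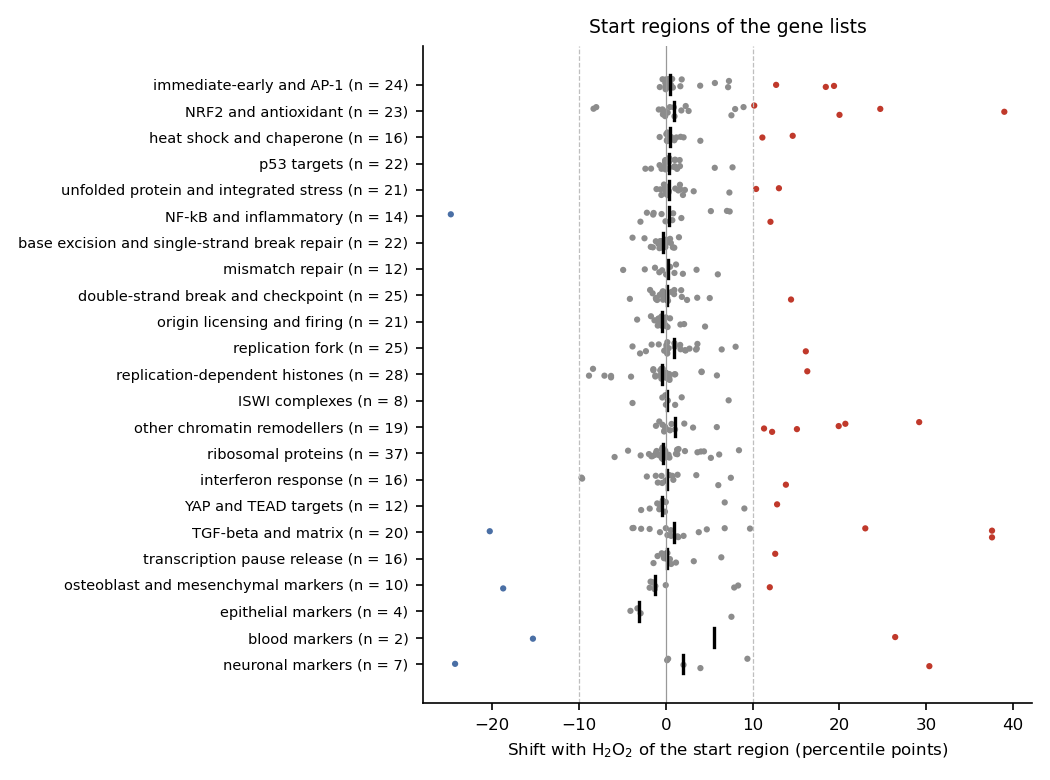
Shift with H2O2 (percentile points) of the start region of each gene, by gene list; each point is 1 gene with a shared start region, black bars are list medians and dashed lines mark 10 points. List medians with at least 8 genes lie between -1.23 and 1.07 points, and 6 of 19 remodellers lie beyond 10 points.

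Of the 464 listed genes with an annotated start, 30 rose and 5 fell, beside 1297 and 276 of all 15812 genes with one. Of these listed genes, 17 that rose and 3 that fell kept their direction in all 5 rankings. The other 13 risers had a negative shift by signal per bp: EGR2, EGR4, BAG3, DNAJB6, NFKB1, TRIB3, VLDLR, EP400, COL4A1, COL4A2, ITGA5, LATS2 and MSX1. GAD1 and COL6A2 had a positive one. Of 12 osteoblast and mesenchymal genes with an annotated start, markers of the labelled cells, 10 had a shared start region, beside 67.1% of all genes. VIM was at 99.8 in both lists, and the osteoblast genes ALPL and IBSP had no start region in either. RUNX2, a transcription factor of osteoblasts, fell from 62.0 to 43.3, and MSX1 rose from 70.0 to 82.0. Of markers of other cells, 4 of 5 epithelial, 7 of 10 neuronal, 2 of 6 blood and 0 of 6 liver genes had a shared start. The blood genes PTPRC, CD3D and CD2 had no region in either list. Start regions of CD79A (at 8.90), NEUROD1 (24.1) and NEUROG2 (1.42) were listed only with H2O2, and GAD1 fell from 81.6 to 57.3 while SYN1 rose from 48.9 to 79.2.

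Untreated-only regions were most numerous in very long genes, counted over the gene with 5 kb added at either end. RBFOX1, a neuronal splicing factor gene of 2474 kb, held 34 untreated-only and 6 H2O2-only regions among 117. The untreated-only share was thus 29.1%, against 16.2% over all regions. TENM2 held 17 of 53 (32.1%), NRXN3 15 of 54 (27.8%), ASIC2 19 of 79 (24.1%) and KAZN 14 of 63 (22.2%). RBFOX3 with 16 of 84 (19.0%), GPHN with 15 of 80 (18.75%) and RANBP2 with 16 of 89 (17.98%) were nearer to the share over all regions, so their place also reflects how many regions they hold. H2O2-only regions were most numerous at MAD1L1, a spindle checkpoint gene of 417 kb, with 25 (24.04% of the regions it holds, against 6.81% over all regions). CHLSN had 16 of 65 (24.6%), TNRC18 14 of 54 (25.9%), RBFOX3 13 of 84 (15.5%), BAIAP2 11 of 25 (44%), KIAA1671 10 of 75 (13.3%), RNF216 9 of 41 (21.95%) and LINGO1 9 of 40 (22.5%). MAD1L1, CHLSN, TNRC18 and RNF216 all lie on chromosome 7. The start of MAD1L1 was high in both lists, at 95.3 and 95.98, whereas that of BAIAP2 rose from 65.8 to 90.3. RBFOX1, with the most untreated-only regions, had a start that rose from 42.8 to 53.2.

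A few regions listed once were wide and strong. The strongest untreated-only region was 2351 bp at percentile 85.9, between genes on chromosome 17 (27081673 to 27084023, hg38). The widest was 3542 bp at 82.9 on chromosome 13 (113917005 to 113920546), 52.9 kb from the start of GAS6. The strongest H2O2-only region lay on chromosome 10 (102435337 to 102436245), 2.76 kb from the start of CUEDC2, at 76.7. A region of 2024 bp at the end of GYS1 on chromosome 19 (48967335 to 48969358), at 72.1, lay 2.03 kb from the start of FTL, the ferritin light chain gene.

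The same contrast was made in siOrc6 cells, from other libraries of the same batches. Regions listed once under both siRNAs mostly kept their direction, but most regions listed once in control cells were not listed once under siOrc6. Of the 19654 regions listed only in untreated control cells, 33.6% were listed only without H2O2 under siOrc6 and 2.48% only with it. Another 39.7% were in neither siOrc6 list and 24.3% in both. Of the 8249 H2O2-only regions, 23.7% were H2O2-only there and 6.47% untreated-only. At gene starts 207 of the 551 H2O2-only regions (37.6%) were H2O2-only there as well and 9 (1.63%) untreated-only, while 46.1% were in both lists and 14.7% in neither. Regions that rose in control cells and were in all 4 lists had a median shift of 7.56 points under siOrc6, and those that fell had -11.8 points. Over 81569 regions in all 4 lists the 2 shifts had a Pearson correlation of 0.564 and a Spearman correlation of 0.597, across regions. Under siOrc6 the median shift was 0.14 points at gene starts and -3.52 elsewhere.

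Not every riser was matched. Of 1244 risen genes whose region was in all 4 lists, 1116 (89.7%) also had a positive shift under siOrc6, with a median percentile of 64.7 without and 75.3 with H2O2. The medians in control cells, which the choice of risen genes sets apart, were 54.5 and 74.9. Over all 10492 genes compared in this way the median shift under siOrc6 was 0.10 points, so a positive shift there was common. The 245 fallen genes in all 4 lists had medians of 61.8 and 42.6 in control cells and 60.5 and 50.1 under siOrc6. FNDC4 was H2O2-only under siOrc6 as well, at 76.1, and EGR4 went from 75.9 to 95.8, SMARCA4 from 49.8 to 66.7 and IL1B from 51.8 down to 26.2. Other listed risers were lower with H2O2 under siOrc6: EGR2 went from 83.6 to 79.2, ARID1B from 74.6 to 66.7, HELLS from 52.5 to 47.6 and SMARCD3 from 36.5 to 34.2. Of the 19 remodellers 2 rose there, with a median shift of -0.02 points. FAM83E was untreated-only there too, at 68.1. Of the 10 strongest H2O2-only starts, LONRF2 and SBK3 were also H2O2-only under siOrc6 and the other 7 rose, from IQSEC2 by 23.05 points to ADCY5 by 54.2 points. Among the largest falls PRLR went the other way under siOrc6, from 33.9 to 40.1, and C19orf85 was listed only with H2O2, at 15.6. The others were lower with H2O2 there. Of the 10 strongest untreated-only starts, GAL3ST1 alone was higher with H2O2 under siOrc6, at 0.95 without and 4.51 with it. None of the 23 NRF2 and antioxidant genes rose under siOrc6, where 729 of 10492 genes rose in all. SQSTM1 stood at 73.5 without and 76.1 with H2O2, PRDX2 at 79.1 and 82.7, MGST1 at 45.2 and 47.3, and TALDO1 at 81.5 and 86.0. COL4A1 and COL4A2 were likewise at 80.3 and 82.7 under siOrc6. COL6A2 and GAD1, which fell in control cells, were higher with H2O2 under siOrc6, by 10.98 and 4.17 points. Whether any of these shifts differ between the siRNAs was not tested, since each condition has 1 list.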

How the data were processed

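The submitters' processing notes name build hg38 and, in no stated order, Genrich, Bowtie2, edgeR, SAMtools, Picard, deepTools and bcl2fastq 2.20. Their roles, order and thresholds are not given in the sources used here. The deposited narrowPeak lists give a peak signal (column 7) and -log10 p-values and -log10 q-values (columns 8 and 9) assigned by the authors' caller. There is 1 list per condition over both libraries, so libraries could not be compared. Depth is unknown.

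Peaks on chromosomes 1 to 22 and X were merged where they overlapped or touched. Gene starts, strands and promoter sequences came from RefSeq tables of GRCh38.p14, which matches hg38: 15812 of 19974 coding genes had a start, none of them on chromosome 8. Gene lists (24 lists, 584 genes, 464 with a start) and all members were chosen with earlier results of these data known. The named genes are the 10 strongest start regions listed once in each condition, the 10 largest rises and falls, the 8 genes with most regions listed once in each direction, the extremes of each list and a fixed set of stress genes. Further members of a list are named because they passed 10 points or, below that, after their values were seen, as are the 1 Mb bins. The 5 rankings were peak signal in the whole list, peak signal over shared regions, -log10 p, signal per bp and signal summed over a region. The merging and ranking steps were tested on simulated lists. Scripts ran under Python 3.11.15 with pandas 2.3.3, scipy 1.17.1, numpy 2.4.6 and, for plots, matplotlib 3.10.9.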

Additional observations from a re-analysis of the deposited data

Results flagged for a closer look

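Some regions were listed once in opposite directions under the 2 siRNAs. In 488 regions the peak was listed only without H2O2 in control cells and only with H2O2 in siOrc6 cells, and in 534 regions the reverse was seen. The difference was not tested, since each condition has 1 list.

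Peaks on sequences other than chromosomes 1 to 22 and X were left out of the comparison. They numbered 147 in the untreated and 160 in the H2O2 list of control cells.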

How the results depend on the processing

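No paired analysis was possible because each condition has 1 list over both libraries. For the same reason no library could be left out. Regions listed only without H2O2 numbered 12164 with equal list lengths, 9444 above the untreated median signal and 4563 among peaks outside the lowest 25% of a list. Those listed only with H2O2 numbered 3294 above that median, 1535 outside the lowest 25% and 5427 at signals of at least 2 times the lowest. Regions that rose numbered 15123 when ranked over shared regions and 18612 by signal per bp, and those that fell 15128 when ranked over shared regions. By signal per bp 2603 genes rose and 1053 fell, a choice added after seeing the data.

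The share of untreated-only regions at a gene start was 6.03% in a 3 kb window, 0.99% in a 500 bp window, 2.04% at 2 times the lowest signal and 1.24% with peaks up to 500 bp apart joined. The share of H2O2-only regions was 11.8%, 4.67%, 10.0% and 4.33% in the same order. Using either end of all coding genes, a choice added after seeing the data like that of leaving out chromosome 8, gave 4.93% and 11.98%. The share was higher for H2O2-only regions under every one of these settings. The median width ratio was 0.951 above the median percentile in both lists and 0.941 with equal list lengths.

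The ranks rest on the caller's signal, which grows with width, and are not accessibility in absolute terms.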
